A study of Homo sapiens with 7 samples.

Results

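The genes for the insulin-like growth factor (IGF) binding proteins and the insulin-type receptors were compared between bulk DU145 cells and CSC, the CD44+CD24- cells sorted from the same line. The genes were chosen by name, 7 binding proteins (IGFBP1 to IGFBP7) and 3 receptors (IGF1R, IGF2R and INSR). Each was read from the transcript clusters, probe sets that stand for a gene locus, which the platform annotation pairs with that symbol alone, taking the brightest cluster by its mean over the 7 arrays. IGF2R had no such cluster, so 9 of the 10 genes were described, out of 14232 genes named in this way. IGF1R had 2 clusters and the other genes had 1 each.

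DU145 is a human prostate carcinoma line that grows without androgen. There were 3 arrays of the parental line (DU145) and 4 of the sorted cells (CSC), all of 1 cell line and each with its own RNA sample on a Human Exon 1.0 ST array, and the sources used here name no transgene or drug for either group. The methods state that DU145 cells grew in medium with 10% FBS, and that CSC grew as floating spheroids without serum, in a medium that held insulin (5 µg/ml), EGF (20 ng/ml) and bFGF (10 ng/ml). Insulin, a ligand of the receptors described here, was therefore added in 1 of the 2 culture media, and sorting, serum, added insulin and attachment cannot be told apart in this design. The sample labels give 5% FBS for all 7 samples, CSC included, and say nothing of spheroids or of a medium without serum, which only the methods describe. At least 30 spheroids were pooled for an RNA sample, and the methods count 3 replicates per condition where 4 CSC arrays were deposited, so all 4 were used. No source used here ties the arrays to separate cultures, so the p-values rest on the spread between RNA samples, which may be technical.

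The limits of the methods were used to call a gene: a Benjamini-Hochberg adjusted p no higher than 0.05 in the whole table together with at least 1 log2 unit of change. The array medians were between 5.77 and 5.91, and Pearson's r over all clusters was 0.977 to 0.983 within DU145, 0.967 to 0.975 within CSC and 0.951 to 0.962 between the groups. The cells were sorted by antibodies against surface proteins, whereas these values are RNA, and the samples are named by their labels throughout. Neither sort marker was called, and CD44 was lower, not higher, in CSC. By the methods the CSC RNA came from spheroids cultured after the sort, not from freshly sorted cells. The paper reports that spheroids also held some damaged differentiated cells, and their part in these values was not tested. CD44 was at 8.79, 8.62 and 9.39 in DU145 cells and 8.25, 7.60, 8.07 and 7.09 in CSC, lower on every CSC array (log2 fold change -1.18, limma adjusted p = 0.128). CD24 overlapped between groups (log2 fold change -0.40, limma adjusted p = 0.449), with 3 of the 4 CSC arrays below every DU145 array. By Q-PCR the paper reports CD44 mRNA at similar levels in spheroids and DU145 cells, and CD24 mRNA significantly lower in spheroids. Of 6 epithelial markers 2 were called higher in CSC, EPCAM (log2 fold change 1.92) and CDH1 (3.32), where 0.722% of all clusters were called higher. The study chose CDH1 on these samples, and the paper reports that its Q-PCR also found the CDH1 difference. The keratin genes KRT8 (0.60), KRT19 (0.43) and KRT18 (0.02) were not called, and KRT7 went the other way (-0.35). The summed log2 value of all 6 was 48.8 to 51.1 in DU145 cells and 54.6 to 57.0 in CSC, a rise that lay mostly in CDH1 and EPCAM. None of 7 fibroblast, 7 endothelial and 5 leukocyte markers was called. Their summed log2 values were 29.3 to 30.1, 29.4 to 29.8 and 20.2 to 20.9 in DU145 cells, and 30.2 to 30.7, 30.1 to 30.4 and 22.4 to 25.7 in CSC. In the leukocyte list the lysozyme gene LYZ (log2 fold change 1.53), CD68 (0.91) and CD14 (0.31) were higher on every CSC array than on every DU145 array. Of all clusters, 16.9% did not overlap between the groups in either direction. LYZ was at 2.55 to 2.77 in DU145 cells against 2.79 to 5.60 in CSC. CD3E (0.23) overlapped between groups, and PTPRC, the defining leukocyte gene, was between 2.08 and 2.31 on all arrays.

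IGF1 and IGF2 signal through the receptor tyrosine kinase IGF1R, and insulin through its close relative INSR. Both receptors pass the signal to the PI3 kinase and AKT route and to the MAP kinase route. The receptor IGF2R has no kinase and carries IGF2 and enzymes tagged with mannose 6-phosphate to lysosomes. The binding proteins IGFBP1 to IGFBP6 are secreted, hold IGFs with high affinity and thereby keep them from the receptors or deliver them, whereas IGFBP7 binds IGFs weakly. In the prostate, IGFBP3 is known as a growth-restraining binding protein and carries most IGF in blood, and IGFBP4 is known as an inhibitor of IGF action that the protease PAPPA cleaves.

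The promoters of the 2 genes with the largest change, IGFBP3 and IGFBP4, are shown with that of the insulin receptor gene INSR, which did not pass the test, as 250 bases before the RefSeq transcription start of GRCh38.p14, 5′ to 3′ on the gene's strand. Capitals mark the TATA box TATAAA, its variant form TATATA and the GC box GGGCGG, searched on both strands, and overlapping matches were counted separately. TATATA reads the same on both strands.
IGFBP3 (chr7:45921273-45921522, minus strand): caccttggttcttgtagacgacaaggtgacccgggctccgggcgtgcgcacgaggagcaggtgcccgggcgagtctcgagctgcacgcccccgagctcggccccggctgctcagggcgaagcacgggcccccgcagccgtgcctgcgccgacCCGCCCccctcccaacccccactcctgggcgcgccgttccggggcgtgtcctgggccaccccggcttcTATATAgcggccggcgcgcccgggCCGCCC
IGFBP4 (chr17:40443200-40443449, plus strand): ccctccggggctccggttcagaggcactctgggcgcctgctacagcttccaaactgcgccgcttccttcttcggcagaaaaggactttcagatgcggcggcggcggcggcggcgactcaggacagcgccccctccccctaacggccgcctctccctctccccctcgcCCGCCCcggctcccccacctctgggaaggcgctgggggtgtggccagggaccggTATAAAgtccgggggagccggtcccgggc
INSR (chr19:7294415-7294664, minus strand): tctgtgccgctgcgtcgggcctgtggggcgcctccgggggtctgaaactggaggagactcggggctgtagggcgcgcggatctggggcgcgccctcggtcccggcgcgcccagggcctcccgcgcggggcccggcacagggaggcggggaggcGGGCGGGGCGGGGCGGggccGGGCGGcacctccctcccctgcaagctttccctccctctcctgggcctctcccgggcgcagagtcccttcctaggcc
The IGFBP4 window held TATAAA from position -29 and the IGFBP3 window held TATATA from position -30, counted back from the start, and the INSR window held neither. There were 2 GC box matches before IGFBP3, 1 before IGFBP4 and 4 before INSR, where 3 of them overlap as a run. TATAAA was present in 10.7% of 35116 promoter windows of this length, TATATA in 3.73% and GGGCGG in 42.6%. A match describes the letters only. Of the 10 genes, 8 had a promoter entry, and IGFBP1 and IGFBP7 had none.

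IGFBP3 was the gene of this family that rose in CSC. Its log2 value was 7.47, 7.56 and 7.35 on DU145 arrays 1, 2 and 3, and 9.40, 10.08, 10.30 and 10.29 on CSC arrays 1, 2, 3 and 4. All 4 CSC arrays lay above all 3 DU145 arrays, and within CSC array 1 was the lowest. The mean rose from 7.46 ± 0.10 (SD, n = 3) to 10.02 ± 0.42 (SD, n = 4), which is 2.56 more on the log2 scale (SE, the standard error of the fit, 0.23; limma adjusted p = 0.00928). This was a 5.88-fold increase, with a 95% interval of 3.995- to 8.65-fold, and the 36th largest increase of the 22011 clusters. The exact two-sided permutation test over the 35 ways to divide 7 arrays into 4 and 3 gave p = 0.0286, the smallest it can give. IGFBP3 was the only 1 of the 9 genes called, against 1.30% of the table, of which 0.722% was higher and 0.577% lower in CSC. By the adjusted p without the fold limit it was also 1 of 9, where 2.04% of all clusters passed, and by the unadjusted p with the fold limit it was 2 of 9, IGFBP3 and IGFBP4, where 4.35% passed. The study selected IGFBP3 on these samples, so its call is not independent evidence. The paper reports that its Q-PCR also found the IGFBP3 difference, and those data were not analysed here. The call was lost without DU145 array 1 (limma adjusted p = 0.057) and without DU145 array 2 (adjusted p = 0.0544), with log2 fold changes of 2.56 and 2.60. It was also lost with the replicate number as a block (limma adjusted p = 0.104) and by a test of each cluster without limma's moderation of the variance (adjusted p = 0.0585).

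IGFBP4 went the other way without passing the test. Its log2 value was 8.40, 8.97 and 9.14 on DU145 arrays 1, 2 and 3, and 7.74, 7.83, 7.79 and 7.18 on the 4 CSC arrays. Every CSC array lay below every DU145 array, and CSC array 4 was the lowest. DU145 cells had a mean of 8.84 ± 0.39 (SD, n = 3) and CSC one of 7.63 ± 0.30 (SD, n = 4). The log2 fold change was -1.21 (SE 0.23, limma adjusted p = 0.0594), or 2.31-fold lower in CSC with a 95% interval of 1.56- to 3.41-fold. The unadjusted p was 0.00175 from limma, and the exact permutation test gave p = 0.0286, again its smallest value. IGFBP4 was called when the array medians were set equal (limma adjusted p = 0.0345), after a further quantile normalization (0.0298), with array weights (0.0425) and among the brighter clusters alone (0.0194), and in none of the 7 fits with 1 array left out. IGFBP3 and IGFBP4 were the 2 of the 9 genes whose groups did not overlap, where 16.9% of all clusters did not overlap. The part that the shifts of CD44, EPCAM, CDH1, LYZ, CD68 and CD14 have in these 2 genes' values was not tested. In bulk RNA fewer cells with a transcript and less of it per cell cannot be told apart. In the plot of values by array these are the panels whose DU145 and CSC points are apart.

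**Figure D1:**
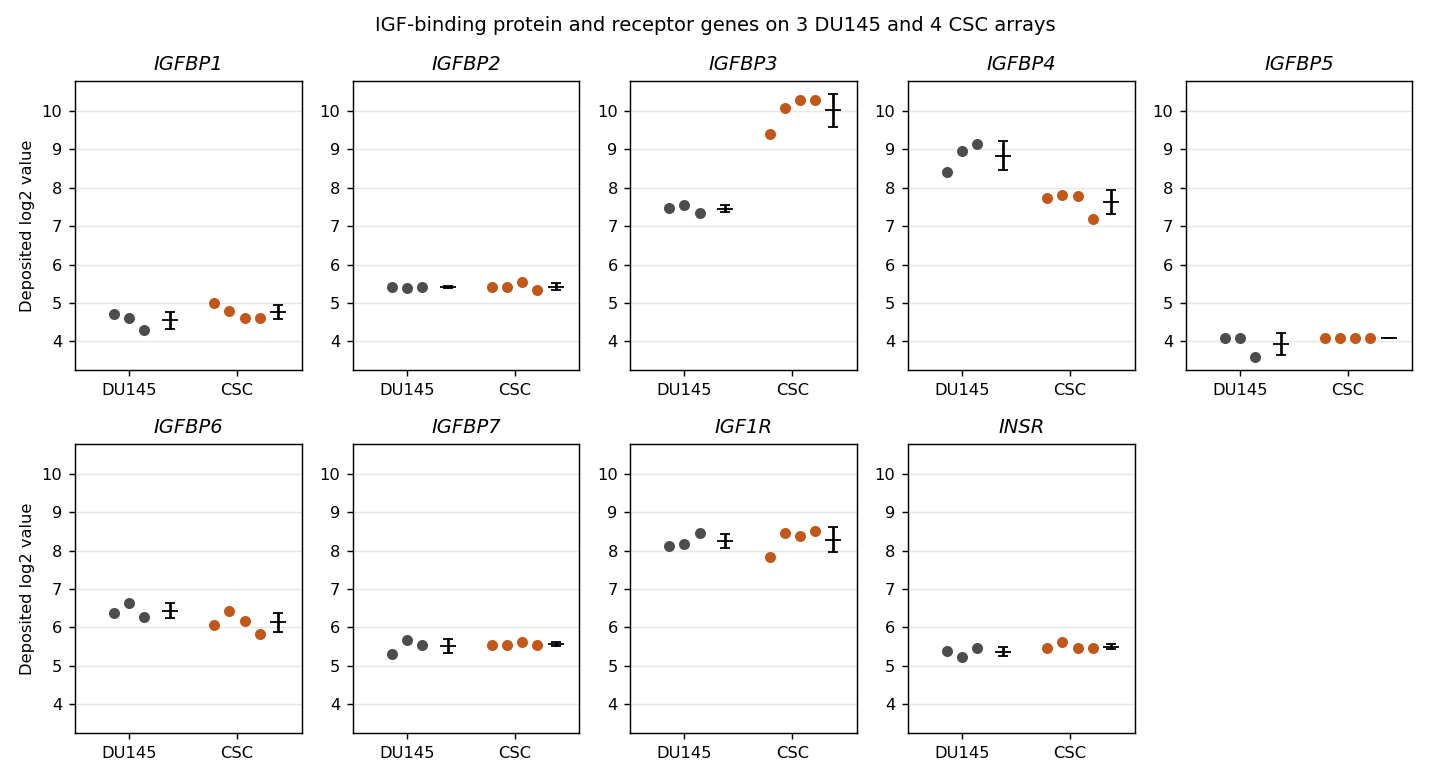
Deposited log2 value of each gene (y axis) on the 3 DU145 arrays (grey) and the 4 CSC arrays (orange), with the group mean and SD as a black bar beside the points, which follow the array numbers from left to right. IGFBP3 points are between 7.35 and 7.56 in DU145 cells and between 9.40 and 10.30 in CSC, IGFBP4 points are lower on all CSC arrays, and the groups overlap in the other 7 panels.

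The other 5 binding proteins did not pass the test. IGFBP6, a binding protein that prefers IGF2, had log2 values of 6.38, 6.64 and 6.28 in DU145 cells and 6.06, 6.43, 6.18 and 5.84 in CSC. On CSC arrays 1, 3 and 4 it was below every DU145 array and on CSC array 2 it was not, and the log2 fold change was -0.31 (SE 0.16, 95% interval -0.69 to 0.08, limma adjusted p = 0.346), or -0.20 without DU145 array 2. IGFBP1, a liver-secreted binding protein whose gene insulin is known to repress, had log2 values of 4.71, 4.62 and 4.31 in DU145 cells and 5.00, 4.80, 4.62 and 4.62 in CSC. The groups overlapped, with a log2 fold change of 0.21 (SE 0.14, 95% interval -0.13 to 0.55, limma adjusted p = 0.434), and of 0.0938 without DU145 array 3.

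IGFBP2, IGFBP5 and IGFBP7 varied little, and part of their values were the same number on several arrays. IGFBP2, a binding protein that also attaches to integrins, was at 5.43 on 4 of the 7 arrays and between 5.33 and 5.54 on all of them. IGFBP5, a binding protein that also attaches to extracellular matrix, was at 4.09 on 6 of the 7 arrays, all 4 CSC arrays among them, and at 3.59 on DU145 array 3. IGFBP7, a low-affinity relative also found in the matrix around vessels, was at 5.55 on 4 of the 7 arrays and between 5.32 and 5.67 on all. Identical values were common in the deposited table, where 6.13% of clusters held 1 value on at least 5 of the 7 arrays, and such a cluster cannot show a small change. The log2 fold changes were 0.01 for IGFBP2 (95% interval -0.15 to 0.18), 0.17 for IGFBP5 (-0.15 to 0.49) and 0.06 for IGFBP7 (-0.17 to 0.28). The IGFBP5 value rested on DU145 array 3 alone and was 0.00 without it.

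Neither receptor gene passed the test. IGF1R, the IGF receptor, had log2 values of 8.11, 8.16 and 8.45 in DU145 cells and 7.82, 8.45, 8.37 and 8.51 in CSC. CSC array 1 was the lowest and CSC array 4 the highest of all arrays, and the log2 fold change was 0.05 (SE 0.19, 95% interval -0.41 to 0.50, limma adjusted p = 0.913). The second IGF1R cluster was at 7.14, 7.35 and 7.57 in DU145 cells and spread more widely in CSC, at 7.42, 8.32, 6.91 and 7.80, with a log2 fold change of 0.26 (95% interval -0.53 to 1.06, limma adjusted p = 0.673). INSR, the insulin receptor, had log2 values of 5.40, 5.23 and 5.46 in DU145 cells and 5.46, 5.61, 5.46 and 5.46 in CSC. Its groups touched at 5.46, the value of 4 of the 7 arrays, and the log2 fold change was 0.14 (SE 0.08, 95% interval -0.06 to 0.33, limma adjusted p = 0.402), or 0.0705 without DU145 array 2. For all 7 genes other than IGFBP3 and IGFBP4, the main clusters had 95% intervals between -0.69 and 0.55, inside the fold limit of 1 on the log2 scale. However, IGFBP1, IGFBP2, IGFBP5, IGFBP7 and INSR lay below the lowest array median (5.77) on every array, and detection calls were not used. For these genes a narrow interval does not show that the transcript was unchanged. Over the 9 genes the median log2 fold change was 0.06 and over all clusters it was 0.08, with 7 means higher and 2 lower in CSC, although IGFBP2, IGFBP7 and IGF1R turned lower when the array medians were set equal.

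**Figure D2:**
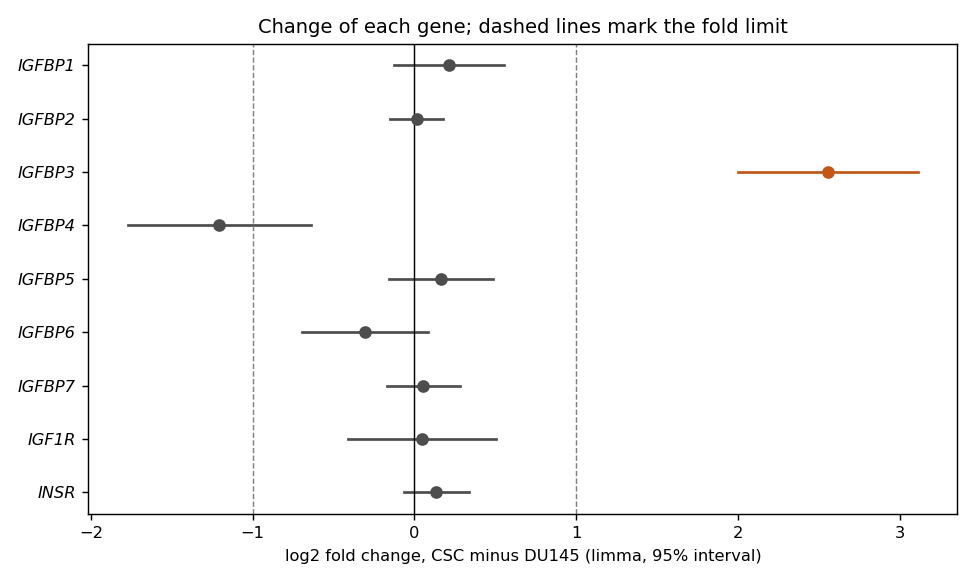
Log2 fold change of each gene, CSC minus DU145 (x axis), as a point with its 95% interval from limma, with the called gene in orange and the fold limit of 1 in either direction as dashed lines. IGFBP3 at 2.56 lies beyond the limit with its whole interval, the interval of IGFBP4 around -1.21 spans the limit, and the other 7 intervals lie between the limits.

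IGFBP3 and IGFBP1 are neighbours on chromosome 7, and IGFBP2 and IGFBP5 on chromosome 2, in the RefSeq annotation of GRCh38.p14, with no other protein-coding gene starting between them. The difference of the log2 values within an array, in which a shift common to both genes cancels, was taken as a description for each pair. Such a shift cancels only where both genes carry signal. IGFBP1, IGFBP2, IGFBP5 and INSR lay below the lowest array median (5.77) on every array, so a difference with 1 of them may mostly show its partner. IGFBP3 minus IGFBP1 was 2.76, 2.94 and 3.05 in DU145 cells against 4.40, 5.28, 5.68 and 5.67 in CSC, so that the change of IGFBP3 exceeded that of IGFBP1 by 2.34 and the groups did not overlap. IGFBP2 minus IGFBP5 overlapped between groups, and DU145 cells were at 1.49 ± 0.30 (SD, n = 3) and CSC at 1.34 ± 0.08 (SD, n = 4). The sign of this difference rested on DU145 array 3, without which CSC were 0.0186 higher. For the paralogous receptors, IGF1R minus INSR was 2.88 ± 0.14 (SD, n = 3) against 2.79 ± 0.30 (SD, n = 4), DU145 cells first, and the groups overlapped. Without CSC array 1 this difference also changed sign, to 0.0532.

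The genes whose values ran most like those of IGFBP3 over the 7 arrays, among clusters with 1 symbol, were DEPTOR, an inhibitor of the kinase mTOR, BICDL1, an adaptor of dynein transport, and GCLC, the catalytic subunit of the first enzyme of glutathione synthesis. Pearson's r with IGFBP3 was 0.992, 0.992 and 0.991. These r are descriptive, since the 7 points share the step between the groups. DEPTOR was at 4.73, 4.87 and 4.70 in DU145 cells against 8.35, 8.74, 8.90 and 9.44 in CSC, lowest on CSC array 1 among the CSC arrays as IGFBP3 was. BICDL1 and GCLC were also called, with log2 fold changes of 1.02 and 1.15.

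Other genes of the pathway were counted in 8 lists, which hold 92 measured genes. Of these, 2 were called higher and 2 lower in CSC, 4.35% of the measured genes against 1.30% of all clusters, with a median log2 fold change of 0.12 against 0.08 over all clusters. All 4 stand in different lists, and most genes of each list did not pass. The lists were written with earlier results of these data known. They also hold only clusters with 1 symbol, unlike the whole table, so these shares are no test of the pathway. The study chose CCN1 (CYR61) and CAV1 on these samples. The paper reports that its Q-PCR also found the CYR61 difference, while CAV1 was not among the genes checked in that way.

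Among the ligands and the acid-labile subunit, 0 of 6 measured genes were called, and INS and IGF2 had no cluster of their own. By limma the smallest unadjusted p of this list was 0.225, for IGFALS, the subunit that joins IGF and IGFBP3 in blood, with a log2 fold change of 0.14. IGF1, named here for its role after its values were seen, was at 4.32, 4.21 and 3.88 in DU145 cells and between 3.96 and 4.08 in CSC. Its groups overlapped, with a log2 fold change of -0.09 (limma adjusted p = 0.662).

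Among proteases that cleave binding proteins and their inhibitors, 1 of 11 genes was called higher, none was called lower and 10 did not pass. PAPPA had no cluster of its own. STC2, stanniocalcin 2, a secreted inhibitor of PAPPA, rose from 7.26, 7.37 and 7.89 in DU145 cells to 8.53, 8.60, 8.51 and 9.01 in CSC. All CSC arrays were higher, and the log2 fold change was 1.15 (SE 0.19, limma adjusted p = 0.0444). Of the fits with 1 array left out, 1 of 7 kept the call of STC2, the one without DU145 array 3, and the adjusted p from limma reached 0.151 in the others.

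Of 12 measured relatives that carry an IGFBP-type domain, 1 was called lower, none was called higher and 11 did not pass. CCN1, a matrix-associated signaling protein, fell from 9.25, 9.67 and 9.47 in DU145 cells to 8.01, 8.07, 8.02 and 8.68 in CSC, lower on every CSC array. Its log2 fold change was -1.27 (SE 0.20, limma adjusted p = 0.0381), and the call was kept in 1 of 7 fits, the one without CSC array 4. CRIM1, named here after its values were seen, fell further without passing (log2 fold change -1.93, limma adjusted p = 0.143). It was at 9.47, 9.83 and 9.89 in DU145 cells and 6.32, 7.87, 8.19 and 8.81 in CSC. Groups did not overlap in 4 of the 12 genes, against 16.9% of all clusters. CCN1 and CRIM1 were lower and CCN3 and KAZALD1 higher in CSC. Neither of 2 measured IGF2 mRNA-binding proteins passed. IGF2BP2, which binds IGF2 transcripts, was at 7.38, 7.67 and 7.79 in DU145 cells and 6.90, 6.45, 6.45 and 6.93 in CSC, and its log2 fold change of -0.93 (limma adjusted p = 0.0551) missed both limits.

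Of 18 receptor substrates and adaptors none was called, against 1.30% of all clusters, with a median log2 fold change of 0.18. By limma the smallest unadjusted p-values of this list were 0.00238 for PTPN1, the phosphatase that dephosphorylates the insulin receptor, and 0.00397 for ENPP1, a membrane protein known to inhibit that receptor. Their log2 fold changes were 0.79 and -0.79, and neither passed (adjusted p = 0.0682 and 0.0846). The docking proteins IRS1 and IRS2, named for their role after their values were seen, had log2 fold changes of -0.30 and 0.30 (adjusted p = 0.432 and 0.236 from limma).

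Of 20 genes of the PI3 kinase, AKT and mTOR relay, DEPTOR alone was called, and it rose by 4.09 on the log2 scale (SE 0.25, limma adjusted p = 0.00209) and kept its call without each of the 7 arrays. None of 14 genes of mannose 6-phosphate receptor trafficking, the route that IGF2R serves, was called. In that list the smallest unadjusted p-values from limma were 0.014 for GNPTG, a subunit of the enzyme that makes the mannose 6-phosphate tag, and 0.0209 for GGA2, a sorting adaptor, with log2 fold changes of 0.44 and 0.37. Of 11 surface and nuclear partners of IGFBP3, CAV1, the main coat protein of caveolae, was called lower and 10 did not pass. CAV1 was at 10.59, 10.79 and 11.03 in DU145 cells and 9.14, 8.64, 9.17 and 9.12 in CSC, lower on every CSC array. It fell by 1.79 on the log2 scale (SE 0.17, limma adjusted p = 0.0105), and its call was lost without DU145 array 2 (adjusted p = 0.0629).

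**Figure D3:**
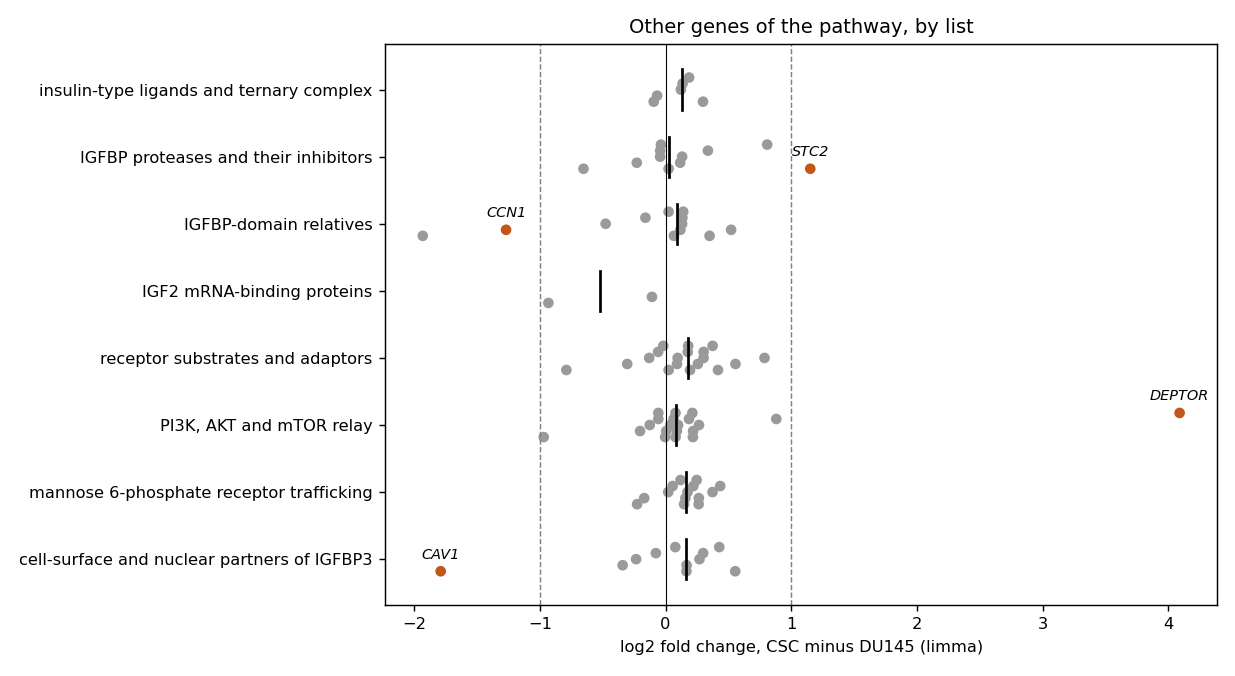
Log2 fold change, CSC minus DU145 (x axis), of every measured gene in the 8 pathway lists (rows), with called genes in orange and named, the list median as a black bar and the fold limit as dashed lines. Of the called genes, DEPTOR at 4.09 and STC2 at 1.15 lie to the right, and CCN1 at -1.27 and CAV1 at -1.79 to the left. The point furthest to the left is CRIM1 at -1.93, which was not called and is not named in the plot. The list medians run from -0.52 to 0.18.

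**Figure D4:**
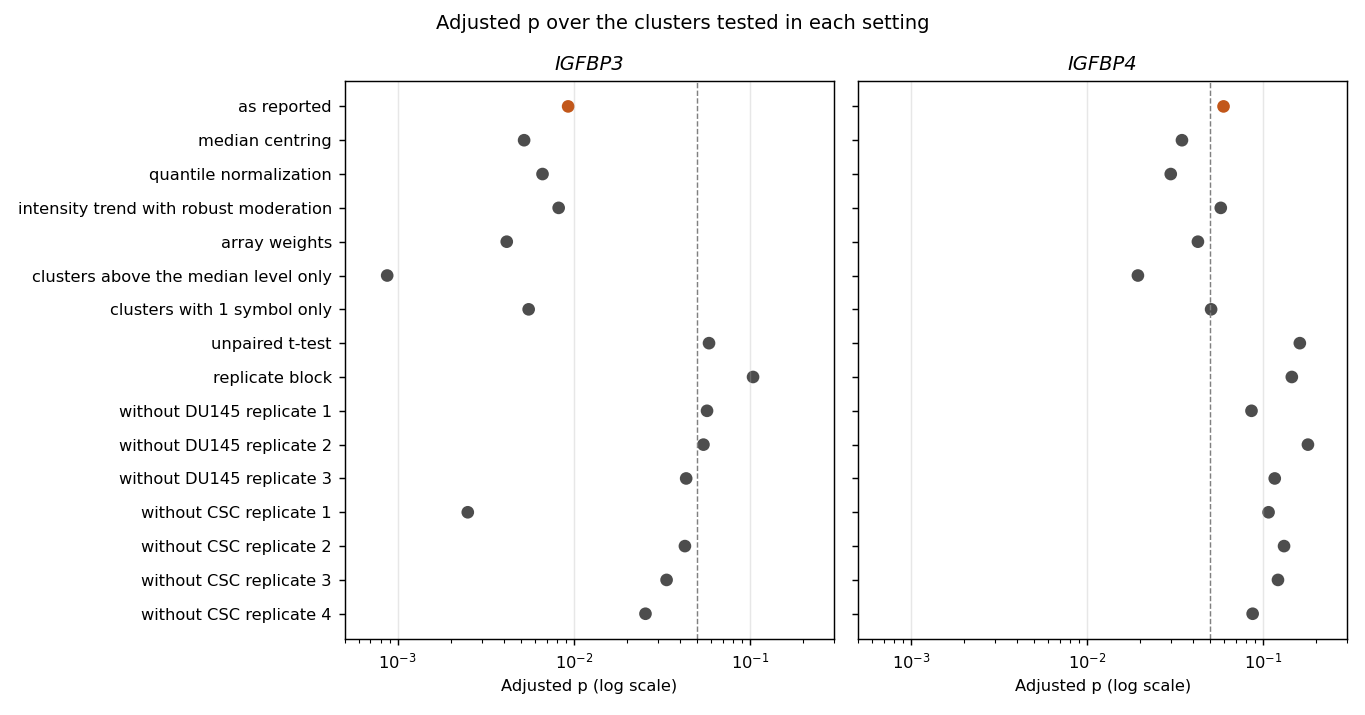
Adjusted p of IGFBP3 (left) and IGFBP4 (right) on a log axis, adjusted over the clusters tested in each setting (fewer clusters in the settings above the median level or with 1 symbol), for the fit as reported (orange) and each alternative with the same fold limit (grey), with the threshold of 0.05 as a dashed line. IGFBP3 runs from 0.000872 to 0.104 and IGFBP4 from 0.0194 to 0.179, so both genes lie on either side of the line.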

How the data were processed

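RNA of 3 DU145 and 4 CSC samples was measured on exon arrays. The methods state that the arrays were summarized per gene with oneChannelGUI (Robust Multichip Average and quantile-sketch normalization). The deposited log2 values were assumed to be the result of those steps. The table holds 22011 transcript clusters, with values from 0.24 to 13.8. A genome build or an earlier filter is not given in the sources used here. Detection calls were not used. The number of arrays limits the precision.

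Groups and replicate numbers came from the sample labels. All clusters were fitted with limma 3.58.1 (R 4.3.3), with a term for condition alone and moderated variances, and p-values were adjusted over all clusters. The fit was checked on simulated data. Intervals are 95% intervals of the moderated fit. An exact permutation test was added for single genes.

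The members, the gene lists and the tests were chosen with earlier results of these data known. The text names all members, each list's called genes, or its lowest p-values where none was called, and the genes most correlated with a called member. IGF1, IRS1, IRS2, CRIM1, CCN3 and KAZALD1 were named after their values were seen. Promoter sequences are from RefSeq (GRCh38.p14). Alternatives covered scaling, moderation, array weights, filters, thresholds, an unpaired t-test (which the methods name for their other experiments, not for the arrays), a replicate block and each array left out. Exon-level values, IGF2R and Q-PCR were not analysed here.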

Additional observations from a re-analysis of the deposited data

Results flagged for a closer look

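For 15 clusters, those of the family genes except IGFBP5 with its identical CSC values, the second one of IGF1R and the 6 called pathway and marker genes, the highest and lowest of the 4 CSC arrays were compared with the rest of the group. In 5 of them 1 CSC array stood apart by more than Dixon's 95% limit, where chance gives about 1 in 20. IGFBP4 was at 7.18 on CSC array 4, and the other CSC arrays were between 7.74 and 7.83. CCN1 was at 8.68 on CSC array 4, above the other CSC arrays. CAV1 was at 8.64 on CSC array 2, below the others. IGFBP7 was at 5.63 on CSC array 3 and INSR at 5.61 on CSC array 2, in both cases with the other 3 CSC arrays at 1 identical value, so that any departure from it was marked.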

How the results depend on the processing

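IGFBP3 kept its direction under all 17 alternatives, with log2 fold changes from 2.46 to 2.76, and kept its call under 13. It missed the threshold by an unpaired t-test (2.56, adjusted p = 0.0585), with a replicate block (2.46, limma adjusted p = 0.104) and without DU145 array 1 or 2. Without 1 array at a time its log2 fold change ran from 2.46 to 2.76. IGFBP4 was lower in CSC under all 17 and passed under 5: with median centring (-1.28), quantile normalization (-1.31), array weights (-1.16), and, at -1.21, among clusters above the median level and at an unadjusted p with the fold limit. Without 1 array at a time it ran from -1.42 to -1.05. The number of family genes called was therefore 2 under those 5 settings, 0 by the t-test and with the replicate block, and 0 to 1 without 1 array. Means close to no change turned sign. IGFBP2 was -0.0619 with median centring and -0.0335 with quantile normalization, and ran from -0.0221 (without CSC array 3) to 0.0469 without 1 array. IGFBP7 was -0.0191 with median centring, and ran from -0.0406 (without DU145 array 1) to 0.1354 without 1 array. IGF1R was -0.0291 with median centring, -0.0540 with quantile normalization and -0.0283 with the replicate block, and ran from -0.0283 (without CSC array 4) to 0.2021 without 1 array, also below 0 without DU145 array 1 or CSC array 2. None of these passed the test. The pathway genes called numbered 1 by the t-test, 0 with the replicate block and 1 to 3 without 1 array, against 4. The clusters called in all numbered 286, but 430 with quantile normalization, 495 with array weights, 44 by the t-test, 0 with the replicate block, 957 at an unadjusted p, 450 with no fold limit and 56 to 279 without 1 array. With median centring 192 of the calls were higher and 221 lower, against 159 and 127, and the split was 182 and 66 among clusters with 1 symbol and 399 and 558 at an unadjusted p. The replicate numbers were not used as pairs, because the deviations of same-numbered arrays from their group means correlated at -0.01 to 0.07 over 3 pairs, none above 0.1. With the block 1 CSC array has no partner. The causes of these shifts were not tested. Under 9 alternatives, IGFBP3 minus IGFBP1 stayed higher in CSC, by 2.20 to 2.63, while the other pair differences changed sign without 1 array: IGFBP2 minus IGFBP5 ran from -0.2451 to 0.0186 (above 0 without DU145 array 3) and IGF1R minus INSR from -0.1771 to 0.0532 (above 0 without CSC array 1). Median centring, 1 of the 9, cannot change a difference within an array and is no check of it. The first difference mostly restates the change of IGFBP3.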
